A study of Rattus norvegicus with 53 samples.

Results

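Glul encodes glutamine synthetase, the enzyme that joins glutamate and ammonia into glutamine. Its values were examined in 51 whole eyes of heterogeneous stock (HS) rats as 1 gene of the 32576 in the deposited table. Its row was found by position, as the gene that starts at base 71331052 of chromosome 13 in the Rnor_6.0 build, and carries the identifier ENSRNOG00000049560.

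HS rats are an outbred population bred from several inbred strains, so every rat has its own mix of alleles. PolyA RNA was sequenced from whole eyes, 1 eye per rat, after the extraocular muscles had been removed, and the eyes form a single group with no control group. The labels state that some rats had been through behavioural tests and could take nicotine in another study, without saying which, and they give neither the age nor the sex of a rat. The study sought genes for intraocular pressure, and its eye expression data were collected to relate gene levels to genotype.

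In the retina, glutamine synthetase is a classical marker of Müller glia, the radial glial cells that span the retina. Müller glia take up the glutamate that photoreceptors and bipolar cells release, Glul turns it into glutamine, and neurons take the glutamine back to make glutamate again. Glucocorticoids are known to induce Glul, and the enzyme is also found in other glia and, at lower levels, in many other tissues. A whole eye holds retina, lens, cornea, iris, ciliary body and sclera, so its RNA comes from many cell types, and fewer cells of a type and less RNA per cell cannot be told apart in these values.

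RefSeq lists a pair of start sites for rat Glul in the GRCr8 build, both on the plus strand of chromosome 13. Their promoter windows are shown because they are the regulatory sequence nearest to the transcript that was measured. Each window runs from 250 bases before the start to 50 bases after it, and capitals mark CCAAT on either strand, written ATTGG where it lies on the minus strand. CCAAT is the sequence known to be bound by the factor NF-Y.
Glul start 1, chr13:68519250-68519549: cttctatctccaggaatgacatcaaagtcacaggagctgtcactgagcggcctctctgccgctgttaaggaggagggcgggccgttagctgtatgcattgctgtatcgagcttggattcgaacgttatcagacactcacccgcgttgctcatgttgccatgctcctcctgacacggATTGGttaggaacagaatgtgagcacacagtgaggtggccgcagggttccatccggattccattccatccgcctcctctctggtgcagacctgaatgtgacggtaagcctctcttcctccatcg
Glul start 2, chr13:68575816-68576115: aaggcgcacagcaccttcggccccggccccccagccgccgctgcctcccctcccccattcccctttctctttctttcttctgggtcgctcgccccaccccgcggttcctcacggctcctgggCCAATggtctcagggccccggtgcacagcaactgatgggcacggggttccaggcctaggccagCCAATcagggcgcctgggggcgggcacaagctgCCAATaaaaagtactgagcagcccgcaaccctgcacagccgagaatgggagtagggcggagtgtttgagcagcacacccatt

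The window of start 2 held 3 CCAAT sequences on the plus strand, at positions -128, -65 and -32 from the start, and that of start 1 held 1 on the minus strand, at position -74. Of the 33469 rat promoter windows in the same RefSeq table, 37.5% held CCAAT on either strand and 3.02% held it 3 times or more. The window of start 2 had a GC content of 65.7% and that of start 1 of 54.7%, against a median of 51.7% over all windows. Neither held TATAAA, which was in 14.2% of all windows, or AGAACA, a core sequence of glucocorticoid response elements, which was in 20.7%, each searched on both strands. These matches describe letters only, and since the builds differ, which start corresponds to the measured gene model was not determined.

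Glul was among the most abundant transcripts of the eye. Levels are given as CPM, a gene's expected fragments in an eye per 1000000 fragments of that eye. Glul had a lowest value of 1809.8 CPM, a median of 2894.9 CPM and a highest value of 3636.1 CPM over the 51 eyes, with a mean of 2853.2 ± 357.8 CPM (SD, n = 51). In the middle of the distribution, from the lower to the upper quartile, the eyes lay between 2640.8 and 3112.3 CPM. Thus 1 gene took between 0.181% and 0.364% of all fragments of an eye, with a median of 0.290%.

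The eyes formed a continuous series with a short tail at the low end. The lowest eye stood at 1809.8 CPM and the next at 2107.7 and 2214.9 CPM, while the eye below the highest reached 3522.3 CPM. The highest eye was 2.01-fold above the lowest. Between 26790.7 and 127098.6 expected fragments of Glul were recorded per eye, so counting error had an SD of at most 0.0088 on the log2 scale, which is at most 0.211% of the variance between eyes. Counting error was thus small beside the spread between eyes.

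**Figure D1:**
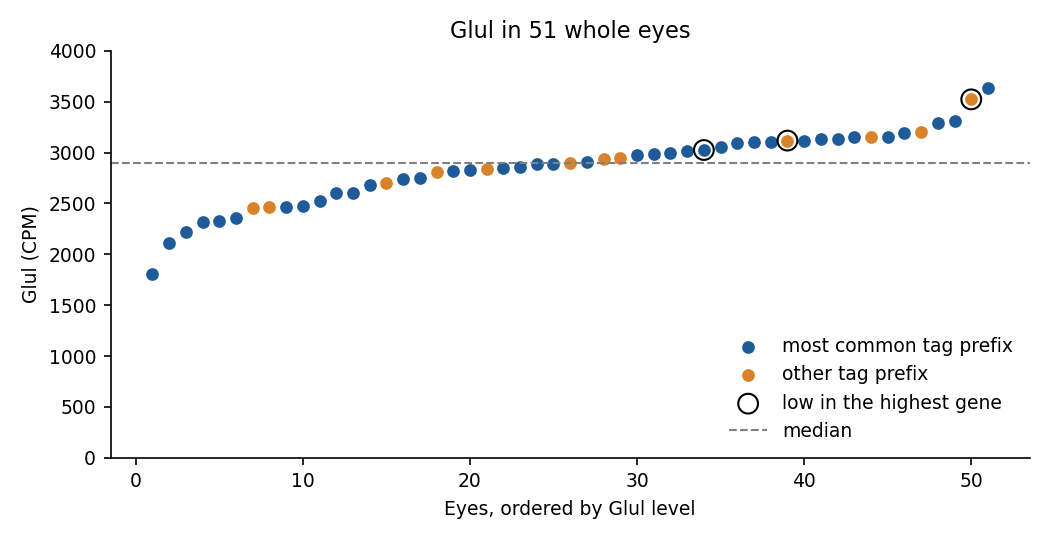
Level of Glul in CPM (vertical axis from 0) in each of 51 eyes, ordered from the lowest to the highest on the horizontal axis. Colours give the class of the eye's tag prefix, rings mark the 3 eyes low in the highest gene of the table, and the dashed line is the median of 2894.9 CPM; values run from 1809.8 to 3636.1 CPM and the classes overlap.

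By its median over eyes Glul ranked 21 among the 32576 genes, and in single eyes its rank lay between 9 and 37, with a median of 23. In the 3 eyes described below, where 10 genes above Glul by median were lower than in every other eye, its rank was 9, 11 and 17. Ranks compare fragments between genes without a correction for length. Of the 20 genes above it, 4 lie on the mitochondrial genome and 1 could be given a name here, Eef1a1, the elongation factor that brings aminoacyl-tRNA to the ribosome. Eef1a1 had a median of 3651.3 CPM and ranged from 2120.6 to 5612.4 CPM. Among the 785 genes that could be named, Glul was the second by level. The next below was Eno1, the glycolytic enzyme enolase, at a median of 1683.1 CPM, with a range of 1174.7 to 2398.3 CPM whose upper end overlapped the low-Glul eyes.

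The spread of Glul between eyes was narrow for so abundant a gene. Its log2(CPM + 1) had an SD of 0.19, and its CPM had a coefficient of variation of 12.5%. Of the 200 genes nearest to it in median level, which ranged from 488.4 to 14074.5 CPM, 27 (13.5%) had a smaller SD than Glul, and their median SD was 0.33. None of the 20 genes above Glul had a smaller SD, since theirs ran from 0.22 to 2.74 with a median of 1.49. In 3 eyes, described below, 10 of these 20 genes were lower than in every other eye, and over the other 48 eyes the SDs of the 20 ran from 0.23 to 1.52 with a median of 0.49, against 0.19 for Glul. Over all genes that reached 1 CPM in the median eye, 4.26% had a smaller SD and the median SD was 0.37. These percentiles are descriptions over genes and not tests.

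Other abundant genes with a name lay on both sides of Glul in steadiness. Tuba1b, an alpha-tubulin, had an SD of 0.19 at a median of 937.2 CPM, and Dynll2, a dynein light chain, had an SD of 0.18 at 698.6 CPM, both slightly below that of Glul. Clu, which encodes the secreted chaperone clusterin and is expressed by Müller glia, had an SD of 0.24 at 903.3 CPM. The SD of Cst3, which encodes the protease inhibitor cystatin C, was 0.39 at 922.0 CPM, the widest of the 6 named genes nearest to Glul in level.

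**Figure D2:**
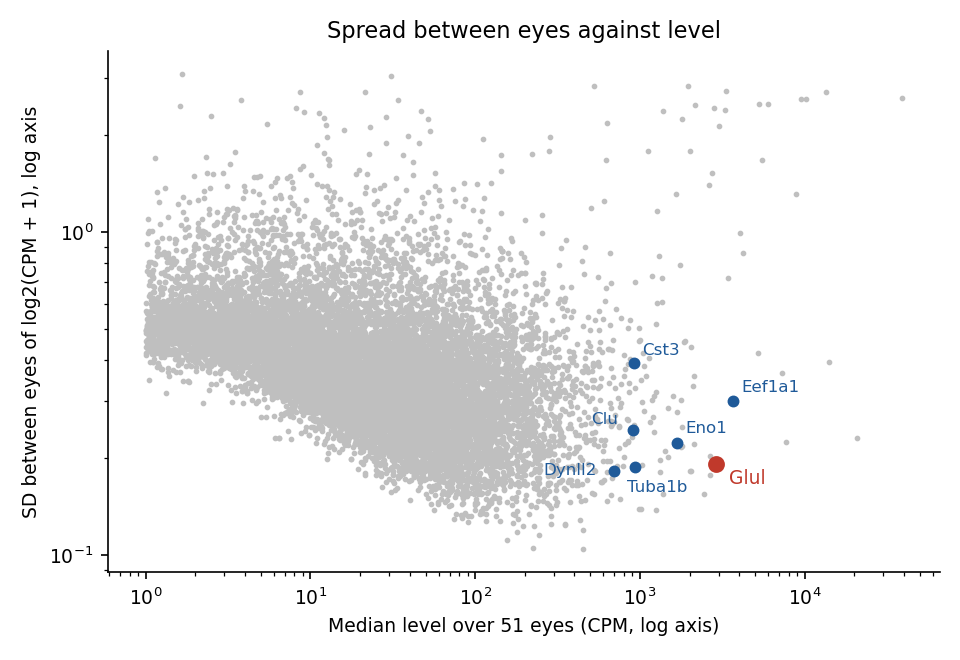
SD between 51 eyes of log2(CPM + 1) against median level in CPM, both on log axes, for each gene that reached 1 CPM in the median eye (grey points). Glul (red) had an SD of 0.19 at 2894.9 CPM, and the 6 named genes nearest to it in level (blue) had SDs of 0.18 to 0.39.

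Before partners of Glul were sought, it was compared with features of the libraries. Total expected fragments per eye ran from 9109084.5 to 42146826.6, with a median of 16193477.9. The level of Glul had a Pearson's r of 0.22 with log2 of this total (permutation p = 0.129) and a Spearman's rho of 0.31 (permutation p = 0.0292), so the rank measure gave a weak positive relation that Pearson's r did not pass. Without the 2 eyes farthest from the median total, r was 0.26. Within classes of eyes it was 0.19 in the 39 whose tags begin with the prefix found most often and 0.37 in the other 12. With the share of fragments from the mitochondrial genome, which ran from 0.418% to 8.91%, r was -0.13 (permutation p = 0.357) and rho was -0.09 (permutation p = 0.541). Of the 4 such measures tested, the smallest p of r adjusted by Benjamini-Hochberg was 0.258.

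In 3 eyes the gene of highest median level in the whole table, which could not be named, was nearly lost, at 8.33 to 44.7 CPM against 12469.3 to 64117.7 CPM in the other 48, and 10 of the 20 genes above Glul were lower there than in every other eye. Glul had 3024.8, 3117.2 and 3522.3 CPM in these 3 eyes, against 1809.8 to 3636.1 CPM in the other 48 (median 2886.3 CPM), so the groups overlapped. With the level of that gene over all eyes, Glul had an r of -0.22 (permutation p = 0.109) and a rho of 0.01 (permutation p = 0.92), with an r of -0.04 in the same 39 eyes and -0.62 in the other 12. Only 1 of the 3 low eyes is among the 39. Without the 3 low eyes, r over the other 48 was 0.145.

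Glul did not differ detectably between classes of eyes that the labels set apart. The 39 eyes with the 6-character tag prefix found most often had 2832.8 ± 373.5 CPM (SD, n = 39), against 2919.3 ± 306 CPM (SD, n = 12) in the eyes of other prefixes, a log2 difference of -0.05 (permutation p = 0.444, two-sided). In the 11 eyes whose identity had been corrected after a mismatch with genotypes, Glul averaged 2767.1 ± 374.2 CPM (SD, n = 11), against 2876.8 ± 354.3 CPM (SD, n = 40) in the eyes with their original label, a log2 difference of -0.06 (permutation p = 0.403, two-sided). Both pairs of groups overlapped over most of their range. What the prefix marks is not given in the labels.

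The genes next to Glul on chromosome 13 were examined by the same regression as all genes (below 0.05 after adjustment in 6.74% of 13843 genes, and before it in 25.3%). Within 0.5 Mb of its start, 18 other genes start, none of which could be named, and 10 of them were at 0 in every eye. The 5 with a median of at least 1 CPM all lie before Glul, and their r with it ran from -0.25 to 0.20. None passed the test, the smallest adjusted p of limma with Benjamini-Hochberg being 0.231, and 0 of the 5 had an unadjusted p under 0.05. With 5 genes, these counts cannot be told apart from the shares over all genes. The 5 genes that start after Glul within this distance reached at most 0.983 CPM in any eye.

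Which genes of the eye vary with Glul was asked by regressing log2(CPM + 1) of each gene on that of Glul over the 51 eyes, with limma and Benjamini-Hochberg adjustment over 13843 genes. At an adjusted p under 0.05, 649 genes rose with Glul (4.69% of those tested), 284 fell (2.05%), and 933 in all passed (6.74%). The relations were of moderate size: r ran from -0.58 to 0.68 over all genes, with a median of -0.02, and those that passed had an r of at least 0.39 or at most -0.39. Genes that rose had a median level of 53.4 CPM and a median SD of 0.29, so they were more abundant and steadier than most. Those that fell had a median level of 38.5 CPM and a median SD of 0.46, and the tested genes had a median level of 22.8 CPM and a median SD of 0.37.

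These counts changed when some single eyes were left out and when components of expression were used as covariates. Eyes are numbered here as names only. Without eye 9, where Glul was at 2107.7 CPM, 66 genes rose and 12 fell; without eye 4, at 2214.9 CPM, 120 rose and 23 fell; and without eye 25, at 3202.1 CPM, 408 rose and 128 fell. Leaving out any other eye kept the rising count within 1.5 times, although the falling count moved to 151, 163, 168, 170, 183 and 189 without eyes 39, 1, 19, 42, 8 and 13 and to 436, 486, 542 and 543 without eyes 7, 31, 23 and 44. Without both of the lowest eyes, at 1809.8 and 2107.7 CPM, 36 genes rose and 3 fell, all 39 of them among the 933. In that fit 2657 genes had an unadjusted p under 0.05 in limma. Without the lowest eye alone, eye 30, 610 genes rose and 242 fell. With the first 5 or 20 principal components of expression as covariates none passed in limma, at smallest adjusted p of 0.370 and 0.482, while 770 and 803 genes had an unadjusted p under 0.05, against 3500 without covariates. The components were computed from the same eyes and genes, Glul among them, so these fits cannot tell what the counts rest on.

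The split between rising and falling genes also depended on how the eyes were scaled. With size factors from the median of ratios in place of the total, 1636 genes rose and 2086 fell, so that 43.95% of those that passed rose, against 69.56% with the total. Of the 933 genes, 909 passed under that scaling too. Without the 3 eyes low in the highest gene, 918 rose and 1144 fell.

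**Figure D3:**
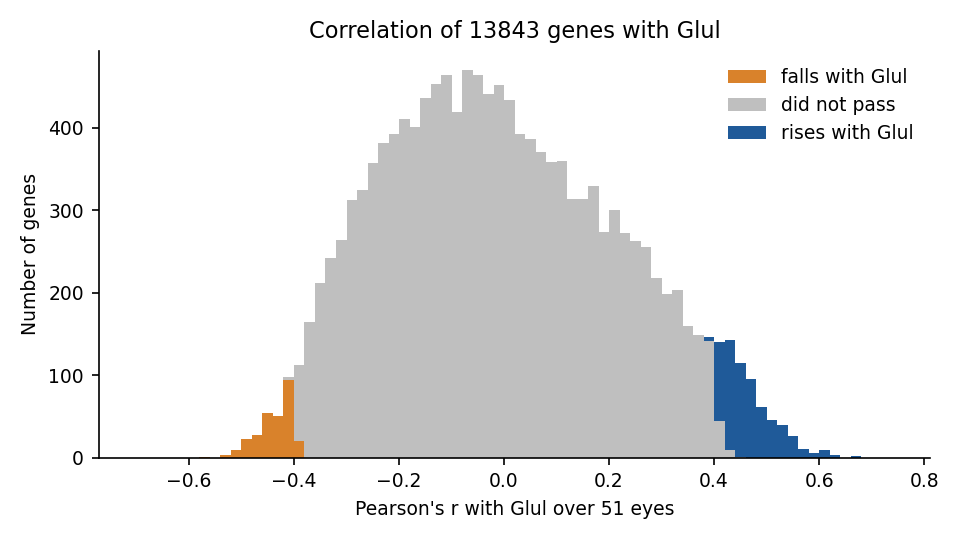
Number of genes (vertical axis) by Pearson's r of log2(CPM + 1) with Glul over 51 eyes (horizontal axis), for the 13843 genes tested. Blue marks the 649 genes that rose with Glul, orange the 284 that fell and grey those that did not pass limma at an adjusted p under 0.05; each gene that passed had an r of at least 0.39 in size, and some genes just beyond that value did not pass.

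The components held a large part of Glul itself. The first 5 held 45.1% of its variance between eyes and the first 20 held 71.8%, where unrelated values would give 10% and 40%. Over all genes detected in any eye, a wider set than the genes tested, the median was 37.1% and 70.9%. Such shares were computed after an inverse normal transformation of each gene, not on the log2 values. Component 2 alone held 17.5% of the variance of Glul, component 5 held 12.3%, and component 1, the largest of the transcriptome, held 4.30%. What these components stand for was not tested.

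Gene names could be given to 706 of the 13843 tested genes, nearly all of them genes that the study listed for a genetic effect on their own level, so they are not a random sample. Glul took its own name from that same list, and its relation to genotype was not examined here. Of these, 36 rose with Glul (5.10%) and 8 fell (1.13%), against 4.69% and 2.05% of all genes tested. The 36 include Gtpbp6 and LOC100912590, whose values were equal in all 51 eyes and which therefore count as 1 measurement.

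Prmt1 had the highest correlation with Glul among named genes. It encodes the main enzyme that dimethylates arginines in histones and RNA-binding proteins. Prmt1 had a lowest value of 45.4 CPM, a median of 103.9 CPM and a highest value of 130.3 CPM. It was at 82.0 and 58.8 CPM in the 2 eyes lowest in Glul and at 119.1 and 130.3 CPM in the 2 eyes highest in Glul, so the eye highest in Glul was also the highest in Prmt1. The r was 0.61 and the rho 0.59 (both permutation p = 1e-05, the smallest that 100000 permutations can give), and the slope was 0.97 ± 0.18 (SE) log2 units per log2 unit of Glul, with an adjusted p of 0.0036 in limma with Benjamini-Hochberg. The relation was present in both prefix classes, at an r of 0.60 in the 39 eyes and 0.72 in the 12, and r was 0.575 without the 2 eyes lowest in Glul. The eye second highest in Glul, here and for the genes below, is 1 of the 3 low in the highest gene. Without those 3 eyes, the r of Prmt1 with Glul was 0.59.

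Cplx3 was next. It encodes complexin 3, a protein that controls vesicle release at the ribbon synapses of photoreceptors and bipolar cells, the same cells whose glutamate Müller glia clear. Cplx3 ranged from 175.6 to 381.4 CPM with a median of 297.7 CPM. It was at 225.4 and 229.5 CPM in the 2 eyes lowest in Glul and at 365.8 and 360.8 CPM in the 2 eyes highest in it. Its r was 0.60 (permutation p = 2e-05) and its slope 0.73 ± 0.14 (SE), with an adjusted p of 0.0069 in limma with Benjamini-Hochberg. Within the 39 and the 12 eyes of the prefix classes r was 0.60 and 0.76, and it was 0.55 without the 2 eyes lowest in Glul. Of the 12 rising and 8 falling named genes described here, Prmt1, Cplx3 and Cadm4 still passed in those 49 eyes, with adjusted p of 0.039, 0.0411 and 0.039 in limma with Benjamini-Hochberg, and each also passed without any 1 of the 51 eyes.

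Several enzymes and structural proteins followed. Ndufb8, a subunit of complex I of the respiratory chain, ranged from 61.2 to 202.2 CPM with a median of 122.3 CPM and had an r of 0.54. Taldo1, the transaldolase of the pentose phosphate pathway, ranged from 101.1 to 286.9 CPM with a median of 173.5 CPM and had an r of 0.53. Taldo1 had its lowest value in the eye second lowest in Glul: it was at 124.8 and 101.1 CPM in the 2 eyes lowest in Glul and at 227.0 and 272.6 CPM in the 2 highest. Tuba1b, one of the alpha-tubulins of microtubules, ranged from 645.1 to 1228.6 CPM with a median of 937.2 CPM and had an r of 0.52. Its lowest value was in the eye second lowest in Glul. Ndufb8 passed without any 1 of the 51 eyes, Taldo1 failed without 1 of them and Tuba1b without 2.

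Genes of adhesion, signalling and proteolysis were also among the 12 named genes that rose most closely with Glul. Cadm4, a cell adhesion molecule of glia and nerves, ranged from 55.7 to 133.3 CPM with a median of 80.2 CPM and had an r of 0.52. Grb2, the adaptor that links receptor tyrosine kinases to Ras, ranged from 76.9 to 160.3 CPM with a median of 99.6 CPM and had an r of 0.50. Cadm4 and Grb2 each had their highest value in the eye highest in Glul, as did Cst3 and Ccndbp1, described below. All extremes said to lie in that eye come from 1 library and are not independent of each other. Cst3 ranged from 463.2 to 1661.2 CPM with a median of 922.0 CPM and had an r of 0.50 but a rho of 0.35, and r was 0.53 in the 39 eyes of the commonest prefix against 0.14 in the other 12, a difference that was not tested. Ctsf, which encodes cathepsin F, a cysteine protease of the class that cystatin C inhibits, ranged from 77.8 to 131.5 CPM with a median of 101.3 CPM and had an r of 0.50. Both Cst3 and Ctsf were below their medians in the 2 eyes lowest in Glul.

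The last of the 12 were less abundant. Ccndbp1, which encodes a partner of D-type cyclins, had a median of 33.9 CPM (21.3 to 52.4 CPM) and an r of 0.50. Arl6ip4, whose product is linked to RNA splicing, had a median of 31.5 CPM (21.3 to 48.3 CPM) and an r of 0.49. Arhgdib, a GDP-dissociation inhibitor found mainly in blood cells, had a median of 37.3 CPM (13.8 to 72.4 CPM) and an r of 0.49. For the 10 genes after Cplx3, adjusted p in limma with Benjamini-Hochberg lay between 0.0098 and 0.0222.

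All 8 named genes that fell with Glul are given. Mns1, which encodes a protein of cilia and flagella, had a lowest value of 0.524 CPM, a median of 3.44 CPM and a highest value of 7.94 CPM. It was at 6.38 and 5.57 CPM in the 2 eyes lowest in Glul and at 1.99 and 2.17 CPM in the 2 highest, on opposite sides of its median. Its r was -0.50 (permutation p = 0.00019) and its slope -1.34 ± 0.34 (SE), with an adjusted p of 0.0168 in limma with Benjamini-Hochberg. At this low level its counting error is larger than that of Glul.

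Lrrk2 encodes a large kinase that acts on Rab GTPases. It ranged from 13.6 to 46.8 CPM with a median of 27.5 CPM, had an r of -0.46, and had its lowest value in the eye highest in Glul. Cntnap5b, a member of the contactin-associated family of neuronal membrane proteins, lies on chromosome 13 like Glul but at base 21678512, far from it. It ranged from 1.03 to 16.9 CPM with a median of 6.60 CPM and had an r of -0.46, with 8.90 and 12.5 CPM in the 2 eyes lowest in Glul and 1.43 and 1.03 CPM in the 2 highest. Cntnap5b too had its lowest value in the eye highest in Glul.

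The other 5 had an r of -0.41 or -0.42. Grin2a, a subunit of the NMDA receptor for glutamate, had a median of 9.17 CPM (2.15 to 23.2 CPM) and an r of -0.41. Cpeb4, an RNA-binding protein that acts on polyadenylation in the cytoplasm, had a median of 94.8 CPM (64.8 to 156.2 CPM) and an r of -0.42. Pikfyve, a kinase of endosomal phosphoinositides, had a median of 64.3 CPM (31.3 to 115.1 CPM) and an r of -0.42, and was highest in the eye second lowest in Glul. Atm, a kinase of the DNA damage response, had a median of 47.4 CPM (16.9 to 83.4 CPM) and an r of -0.41, and Myo9a, an unconventional myosin, had a median of 38.7 CPM (14.1 to 78.1 CPM) and an r of -0.41. Atm and Myo9a were lowest in the eye highest in Glul. Adjusted p for the 8 genes in limma with Benjamini-Hochberg ran from 0.0168 to 0.0406. None of the 8 passed without the 2 eyes lowest in Glul, where their r ran from -0.31 to -0.48. There the r of Lrrk2 (-0.483) and Grin2a (-0.416) was slightly further from 0 than over all eyes, and that of the others was nearer.

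**Figure D4:**
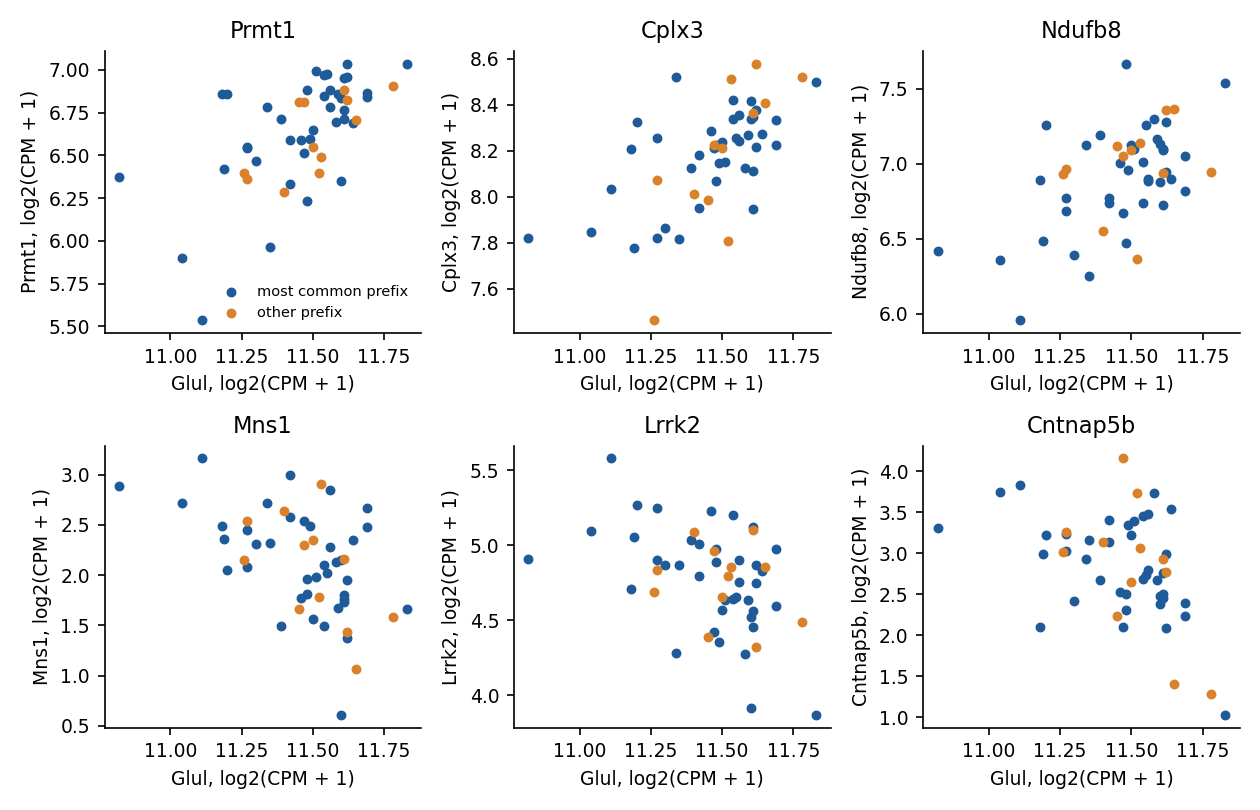
Level of 6 genes against that of Glul, both as log2(CPM + 1), in 51 eyes coloured by the class of their tag prefix; the upper row holds the 3 named genes with the highest r (Prmt1 0.61, Cplx3 0.60, Ndufb8 0.54) and the lower row the 3 with the lowest (Mns1 -0.50, Lrrk2 -0.46, Cntnap5b -0.46). Points scatter widely around each trend, and the eyes of both classes are mixed.

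Genes with no name had stronger relations than any named one: 8 came before Prmt1 among those that rose and 15 before Mns1 among those that fell. ENSRNOG00000011923, which starts at base 140453107 of chromosome 2 and had a median of 1185.9 CPM (648.3 to 1904.8 CPM), had the highest r of all, 0.68. It had its highest value in the eye highest in Glul, and r was 0.71 in the 39 eyes, 0.70 in the 12 and 0.68 without the 2 eyes lowest in Glul. ENSRNOG00000000954 on chromosome 12, at 38.4 CPM (18.6 to 62.0 CPM), had an r of 0.68 as well. In the other direction, ENSRNOG00000052583 on chromosome 3, at 226.1 CPM (130 to 370.7 CPM), had an r of -0.58, and ENSRNOG00000002841 on chromosome 13, at 135.6 CPM (87.5 to 227.2 CPM), had an r of -0.54. The first 3 of these 4 also passed in the 49 eyes, with adjusted p of 0.0032, 0.039 and 0.039 in limma with Benjamini-Hochberg. Of the 412 tested genes on chromosome 13, 15 rose and 15 fell (3.64% each, against 4.69% and 2.05% of all genes). Of the 15 on the mitochondrial genome none passed in limma, against 6.74% of all genes, or had an unadjusted p under 0.05, against 25.3%. These 15 are too few to tell the count that passed apart from the share over all genes, and they were not tested as a set.

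Few genes of the lists that surround Glul in biology could be looked up by name. The lists hold 275 entries in 15 groups of cell type markers and pathways, of which 19 could be named and 17 were tested. None of the 17 passed in limma, against 6.74% of all genes, while 2 (Got2 and Ddit4) had an unadjusted p under 0.05, against 25.3% of all genes. With 17 genes, these counts cannot be told apart from the shares over all genes. The list genes without a name could not be looked up. Of 31 Müller glia genes, Clu and Abca8a could be named. Clu ranged from 596.5 to 1244.1 CPM and had an r of -0.045 with Glul, and Abca8a, a lipid transporter, ranged from 76.4 to 225.1 CPM with a median of 148.2 CPM and had an r of 0.06. Defining markers of Müller glia such as Rlbp1 and Aqp4 are not among the genes named here, so the cell source of Glul was not checked. No entry of the photoreceptor, inner retinal, lens, pigment epithelium and muscle lists could be named, and Cplx3, described above, is in none of the lists. In the 39 eyes of the commonest prefix r with Clu was 0.10, against -0.55 in the other 12. That difference was not tested.

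Of 30 genes that make, move or use glutamate and glutamine, Got2 could be named. It encodes the mitochondrial aspartate aminotransferase, which makes and uses glutamate and takes part in the malate-aspartate shuttle. Got2 ranged from 260.7 to 469.4 CPM with a median of 355.0 CPM, and its SD of 0.16 was below the 0.19 of Glul. It was at 349.1 and 319.6 CPM in the 2 eyes lowest in Glul and at 378.9 and 437.3 CPM in the 2 highest. Its r was 0.42 (permutation p = 0.00235) and its rho 0.47 (permutation p = 0.00051), but over all genes its adjusted p was 0.0641 in limma with Benjamini-Hochberg. Under the median-of-ratios scaling the adjusted p was 0.0144, while it was 0.0881 without the 2 eyes lowest in Glul and 0.847 with 5 components as covariates.

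Of 21 genes of the glucocorticoid response, 4 could be named. Ddit4, an inhibitor of mTORC1, ranged from 52.9 to 113.3 CPM with a median of 73.6 CPM and had an r of 0.35 (adjusted p of 0.0924 in limma with Benjamini-Hochberg). Sgk1, the serum- and glucocorticoid-regulated kinase, ranged from 62.7 to 183.7 CPM with a median of 112.3 CPM and had an r of -0.10. Cdkn1a, a cyclin-dependent kinase inhibitor, had an r of 0.19 and Errfi1, an inhibitor of EGF receptor signalling, one of 0.01. None of these 4 passed, and their r values lie on both sides of 0.

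Over all eyes, the nameable markers of other cells gave values of the same order. The melanocyte genes Tyr, the rate-limiting enzyme of melanin synthesis, and Rab38 had r of -0.17 and 0.21. Of the stromal genes, Fmod had an r of -0.24 and Lum one of -0.04, and among epithelial genes Sdc4 had 0.17 and Lamb3 -0.16. Hbb, a haemoglobin chain that reports blood in the eye, had an r of 0.15, and S100b, a glial and Schwann cell gene, had 0.16. Angpt2 of vessels had 0.23 and Cd68 of macrophages -0.01. Some r differed between the 39 eyes of the commonest prefix and the other 12. They were -0.05 and -0.71 for Tyr, -0.17 and -0.60 for Fmod, and 0.04 and -0.50 for Lum. For Lamb3 they were -0.33 and 0.40, and for S100b 0.29 and -0.30. The rest differed less, and none of these differences was tested. The values rest on 1 or 2 genes of each cell type, so the part of cell composition in the level of Glul was not tested.

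The named genes nearest to Glul in level varied in how closely they followed it. Eef1a1 had an r of 0.28 and Eno1 of 0.27, with adjusted p of 0.231 and 0.243 in limma with Benjamini-Hochberg. Under the median-of-ratios scaling Eef1a1 passed, at an r of 0.41 and an adjusted p of 0.0235 in limma with Benjamini-Hochberg. Dynll2, at 494.3 to 868.9 CPM, had an r of 0.44 with an adjusted p of 0.045, and passed in 30 of the 51 fits that left out 1 eye.

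The stability of single relations differed. Each of the 12 rising and 8 falling genes described above also passed, in the same direction, under the median-of-ratios scaling. Cpeb4, Pikfyve, Atm, Grin2a and Myo9a did not pass with log2 of the total as covariate, at adjusted p of 0.0712 to 0.0927 in limma with Benjamini-Hochberg, or with no filter on level, at 0.0511 to 0.0562. These 5 passed in 36 to 39 of the 51 fits that left out 1 eye, while Mns1 passed in 49 and Lrrk2 and Cntnap5b in 48. Cpeb4, Pikfyve, Atm and Myo9a also failed after an inverse normal transformation, at adjusted p of 0.063 to 0.094 in limma with Benjamini-Hochberg. Of the 44 relations followed, 15 no longer passed in the 40 eyes with their original label. In the 39 eyes of the commonest prefix 11 no longer passed. With the first 5 components as covariates all 12 named rising genes kept a positive partial r, up to 0.33, and of the 8 falling genes all but Atm kept a negative one. With 20 components Ctsf and Ccndbp1 had a negative partial r, and Cntnap5b, Cpeb4, Atm and Grin2a a positive one. None of the 20 genes passed under either set of covariates.

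**Figure D5:**
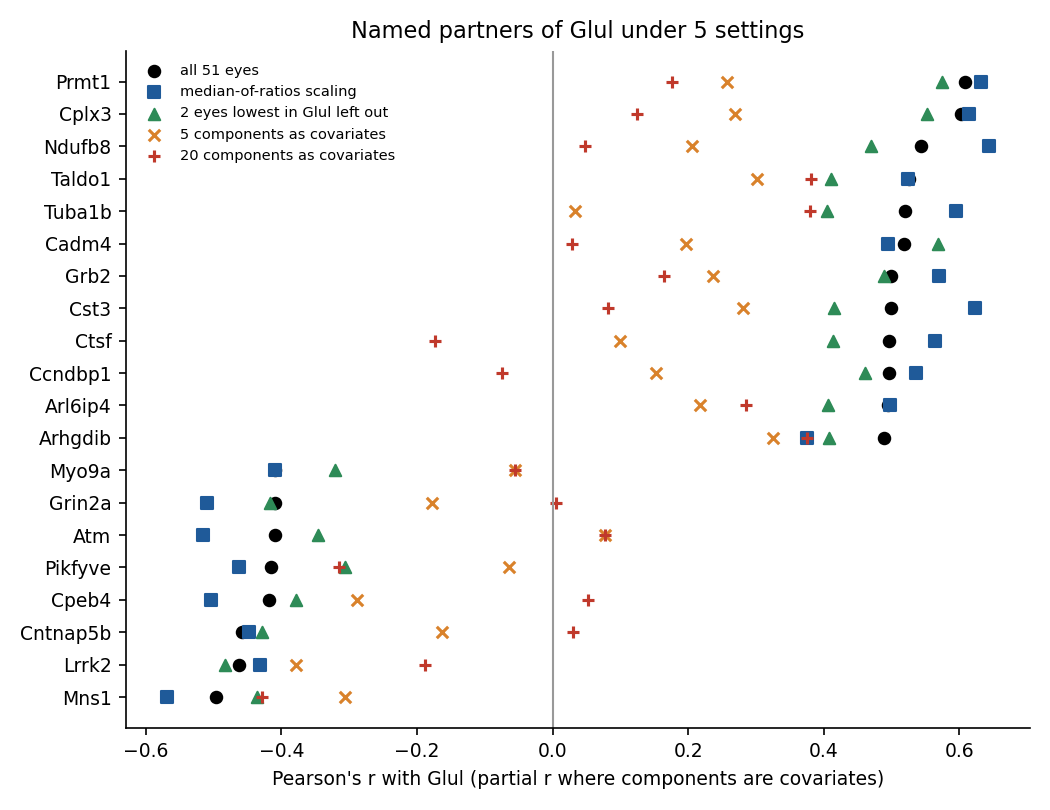
Pearson's r with Glul (horizontal axis) of the 12 named genes that rose and the 8 that fell (rows), over all 51 eyes (black circles), with median-of-ratios scaling (blue squares), without the 2 eyes lowest in Glul (green triangles), and as partial r with 5 (orange crosses) or 20 (red plus signs) components as covariates. Circles, squares and triangles stay on 1 side of 0 for every gene, and the partial r lie nearer to 0 for most.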

How the data were processed

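Whole-eye RNA libraries of HS rats were read as 150 bp pairs. Per the file and the methods, the authors aligned reads to Rnor_6.0 with STAR, matched eyes to genotypes with GATK, and deposited unscaled log2 values, each the RSEM expected count with 1 added before the log. For the versions of these tools and for the annotation, nothing is given in the sources used here. RSEM shares fragments between similar copies, so expected counts need not be whole. A further 2 eyes, removed by the authors, were not analysed here.

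The log2 was undone, each eye was scaled to 1000000 expected counts (CPM), and log2(CPM + 1) was used. Depth was 9109084.5 to 42146826.6 expected counts per eye; intervals and counting errors cover counting only. Each gene with a median of at least 1 CPM was regressed on Glul with limma 3.58.1 (trend in the prior variance) in R 4.3.3, over eyes treated as independent, with Benjamini-Hochberg adjustment and a threshold of 0.05. The rats are related to unequal degrees, which was not modelled. Correlations and group differences were tested two-sided with 100000 permutations. The remaining computations ran in Python 3.11.15 (pandas 2.3.3, numpy 2.4.6, scipy 1.17.1) and plots in matplotlib 3.10.9. The fit was tested on simulated data. There, genes varied independently apart from a relation to Glul given to some of them, so shared variation between genes was not covered.

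Names could be given to 785 genes, by matching their starts to positions that the study gives. Named partners are the 12 of largest positive and the 12 of most negative r past the threshold with a name (8 were found), at most 2 genes without a name in each direction that came before them, nameable list members, and named genes nearest in level. The gene, the lists, the rule and the alternatives were chosen with earlier results of these data known, so they are no independent support. Promoter windows are from RefSeq (GRCr8). Alternatives in scaling, pseudocount, filters, covariates and eyes left out were run, the fits without each eye, without the 3 eyes low in the highest gene and with a total free of the highest genes having been chosen after seeing the data.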

Additional observations from a re-analysis of the deposited data

How the results depend on the processing

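The median level of Glul moved by less than its spread between eyes under the scalings and subsets of eyes run, but the number of partners changed widely. The counts over all genes, as rising and falling genes, were 1636 and 2086 with median-of-ratios size factors, 1709 and 1935 with a total that leaves out the genes above Glul and the mitochondrial genome, and 12243 and 1 with values as deposited, where nothing removes depth. They were 311 and 84 with log2 of the total as covariate, 310 and 165 in the eyes of the most common prefix, 127 and 43 in the eyes with their original label, 36 and 3 without the 2 eyes lowest in Glul, and 0 and 0 with 5 or 20 components as covariates. The falling count was 184 without the 3 deepest eyes and 1144 without the 3 eyes low in the highest gene. Over the 51 fits that left out 1 eye the counts ran from 66 to 938 and from 12 to 543. The fits that leave out the 2 lowest eyes or use 1 class of eyes hold fewer eyes. What caused the changes in the counts was not tested.

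The SD of Glul was 0.48 with values as deposited and 0.16 without the 2 lowest eyes. The r of Glul with depth was 0.92 with values as deposited. On that scale the genes below had a positive r with Glul, against a negative one after scaling: Mns1 had 0.27, Lrrk2 0.53, Cntnap5b 0.14, Cpeb4 0.64, Pikfyve 0.55, Atm 0.25, Grin2a 0.19, Myo9a 0.37, ENSRNOG00000052583 0.53, ENSRNOG00000002841 0.54, Clu 0.79, Sgk1 0.70, Tyr 0.28, Lamb3 0.51 and Fmod 0.45. With 5 components as covariates Atm had 0.0767. With 20, Ctsf had -0.173, Ccndbp1 -0.0742, Cntnap5b 0.0296, Cpeb4 0.0520, Atm 0.0774 and Grin2a 0.0043. A pseudocount of 0.1 and the tag prefix as covariate changed none of the 44 relations with named genes, and a minimum median of 10 CPM made 1 of the 37 it kept pass. No paired analysis was possible because the eyes form 1 group. Glul is deeply covered in every eye, so its counting error is small, while that of genes of low level is larger. Its relation to depth after scaling is a separate matter, with a rho of 0.31 (permutation p = 0.0292) and an r of 0.22 (permutation p = 0.129).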

Other observations

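Beyond the 12 named genes described above, 24 more rose with Glul, at an r of 0.40 to 0.49 (limma with Benjamini-Hochberg); the following were picked out after their values had been seen. Vdac1, a channel of the outer mitochondrial membrane, had a median of 250.8 CPM and an r of 0.49 with Glul. Ldhb, the lactate dehydrogenase subunit that favours pyruvate formation, had 185.7 CPM and an r of 0.43, and Atp5mc2, a subunit of ATP synthase, had 104.3 CPM and an r of 0.42. Rpl14 and Rpl17, proteins of the large ribosomal subunit, were at medians of 366.1 and 149.5 CPM and had r of 0.46 and 0.44. Slc2a5, a fructose transporter expressed by microglia, was at 1.36 CPM, close to the minimum level tested, with an r of 0.42. Rd3l had a median of 26.5 CPM and a rho of 0.55, above its r of 0.41. No explanation of these relations was tested.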
